A study of Mus musculus with 12 samples.

Results

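The expression of 8 transcription factor genes that pattern the embryonic forebrain was followed in adherent neural stem (ANS) cells of the mouse. The cells were sampled in growth medium and after changes to media for neuronal differentiation. The members, Meis2, Zic1, Lhx2, Emx2, Otx1, Otx2, Nkx2-1 and Dlx1, were taken by their gene symbols, and all 8 were found among the 22609 genes of the count tables and the 34993 genes of the table of FPKM, fragments scaled to transcript length and library size. Of these, 6 had at least 10 counts in each of the 12 libraries, and the other two, Otx2 and Nkx2-1, had 0 counts in at least 11 of them. The question was which regional identity these progenitors kept in culture, given that most Dlx genes were near 0.

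ANS cells grow attached as a monolayer of neural progenitors, and these were derived from normal embryonic mouse brain at E14.5. The 3 libraries of T0 came from proliferating cells in growth medium with 20 ng/ml each of FGF2 and EGF. The 3 libraries of T1 were made 2 days after the change to medium D1, with 10 ng/ml of FGF2 and 2 ng/ml of EGF. The 4 libraries of T2 and the 2 of T3 were made 2 and 10 days after the change to medium B, with 10 ng/ml of FGF2 and 20 ng/ml of BDNF and with no EGF named. No genetic change was named for any group, and the labels give neither a brain region nor how many animals or cultures stand behind the replicates, so p-values measure the spread between these libraries.

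In the embryo the neural tube is divided along its length and from dorsal to ventral by transcription factors that are expressed in restricted, overlapping domains. Otx2 and Otx1 mark the forebrain and midbrain, Emx2 and Lhx2 the telencephalon, Nkx2-1 the medial ganglionic eminence and hypothalamus, Dlx genes the subpallium where GABAergic neurons are born, and Hox genes the hindbrain and spinal cord. Meis2 is a TALE homeodomain protein that acts with PBX and other homeodomain partners, and is known from the lateral ganglionic eminence, whereas Zic1 is a zinc finger protein of dorsal neural tube and septum.

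The libraries held from 8910724 to 16631614 counts on genes, with a median of 12601169. T0 replicate 3 stood apart from the other two T0 libraries, with a chi-square per gene of 96.4 and 99.9 against them, where replicates 1 and 2 gave 3.17. Where leaving it out changed the call of a named gene between T2 and T0, the value without it is given beside the result. In bulk RNA, fewer cells that express a gene and less RNA per cell cannot be told apart.

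Levels were compared between genes per length, in FPKM. Meis2 was the highest member, from 27.6 to 82.8 FPKM over the 12 libraries with a median of 52.3. Zic1 followed with 12.5 to 33.0 FPKM, and Lhx2 with 9.32 to 20.0 FPKM. Within each of the 12 libraries Meis2 lay above Zic1 and Zic1 above Lhx2, although the ranges of these neighbours overlapped across libraries. Emx2 lay lower, at 5.56 to 8.61 FPKM, and its range overlapped with neither that of Lhx2 nor that of Dlx1. Dlx1, at 1.64 to 3.34 FPKM, and Otx1, at 1.49 to 2.90 FPKM, were not separated, since Dlx1 was the higher of the pair in 8 of 12 libraries. In all, 6 of the 8 members had a mean of at least 1 FPKM, against 38.3% of all genes in the FPKM table.

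Otx2, a homeodomain factor required for the formation of forebrain and midbrain, was counted in no library (chr14:49277354-49287319, minus strand, mouse build NCBIM37, as for all gene positions here). A count of 0 allows up to 3 counts in a library, which came to between 0.180 and 0.337 CPM (counts scaled to a common library size) depending on its depth, so that a level below this was not detectable. The FPKM table listed Otx2 at 0 in 11 libraries and at 0.0183 in T2 replicate 4. Nkx2-1, the factor that specifies the medial ganglionic eminence (chr12:57632922-57637895, minus strand), had 2 counts in T2 replicate 4 and 0 in the other 11 libraries. That library and T3 replicate 4 differed from the others in such traces. In these 2 libraries 432 and 465 genes were detected that no other library held, nearly all with at most 3 counts, compared with 31 to 87 genes in the other 10.

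**Figure D1:**
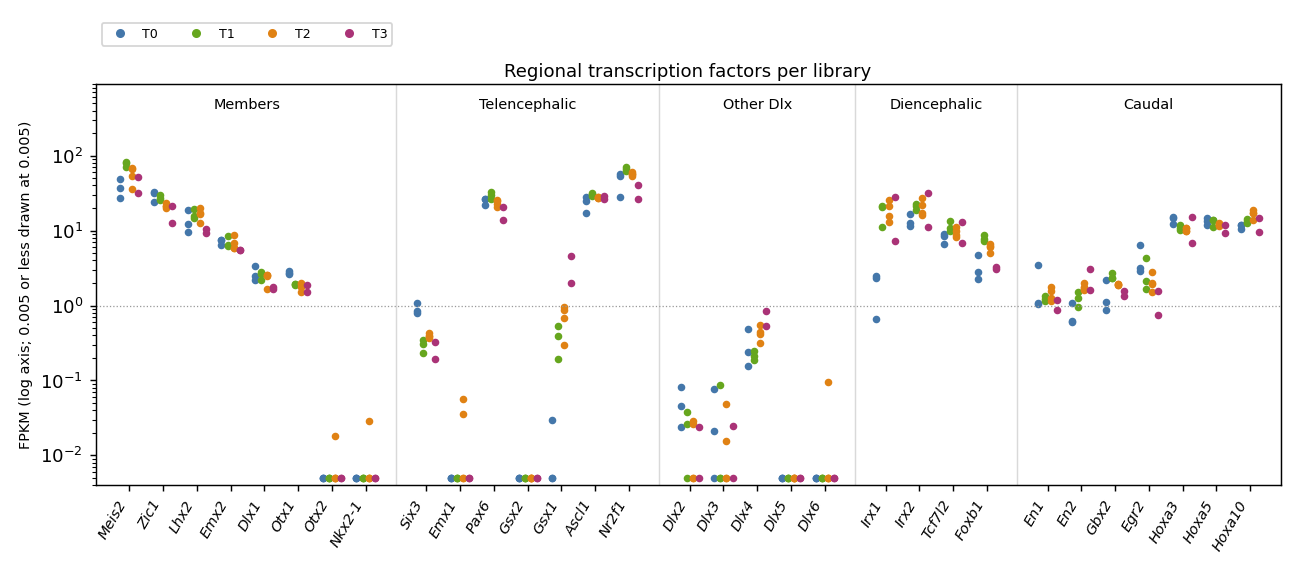
FPKM of the 8 members and of regional genes named in the text, one point per library and one colour per time point, on a log axis with values of 0.005 or less drawn at 0.005 and a dotted line at 1 FPKM. Meis2, Zic1, Lhx2 and Emx2 sit above 5 FPKM in every library, whereas Otx2 and Nkx2-1 lie at or near the bottom beside Hoxa3, Hoxa5 and Hoxa10 above 6 FPKM.

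Meis2 showed the clearest change of the members (chr2:115688800-115891575, minus strand). Its level was 69.5, 70.0 and 46.1 CPM in T0 replicates 1 to 3 and 154, 149 and 130 CPM at T1. It was 129, 134, 118 and 112 CPM in the 4 T2 libraries, and 88.2 and 78.1 CPM at T3. Every T1, T2 and T3 library therefore lay above every T0 library, and the T3 pair lay below all of T1 and T2. Meis2 rose on the log2 scale by 1.22 at T1 (SE 0.18, n = 3 and 3) and by 1.01 at T2 (SE 0.16, n = 4 and 3), with edgeR adjusted p = 0.0038 and 0.0017. The call at both times was kept without any one library, T0 replicate 3 included. The T3 libraries differed from T0 by 0.44 (SE 0.23, edgeR adjusted p = 0.28), which did not pass the test.

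From T2 to T3 the log2 difference of Meis2 was −0.57 (SE 0.11) with an edgeR adjusted p of 0.055, just outside the threshold of 0.05. The same difference was called by DESeq2 (adjusted p = 0.0016) and by edgeR without a filter on low counts (adjusted p = 0.0108), but not by one edgeR fit of all 12 libraries (adjusted p = 0.132) or with the replicate number as a block (adjusted p = 0.18). It also passed in edgeR without T3 replicate 1 (−0.65, adjusted p = 0.0256). That fit leaves T3 with 1 library and takes the spread from T2 alone, and its calls over all genes went from 63 higher and 87 lower to 832 and 515. In the FPKM table T2 replicate 3 stood at 35.9 against 53.2 to 68.2 in the other T2 libraries, although its CPM was not set apart. Meis2 was not called at T2 on that scale, where its log2 difference of 0.54 had a limma adjusted p of 0.16.

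Zic1, which maintains dorsal neural progenitors, went the other way in its values (chr9:91252896-91260648, minus strand). Its level was 92.5, 89.1 and 58.3 CPM at T0, then 69.1, 76.7 and 70.2 CPM at T1. It was 64.8, 61.6, 64.4 and 55.7 CPM at T2, and 51.6 and 47.0 CPM at T3. The T3 pair lay below every other library, whereas T0 replicate 3 lay among the T2 values. With all libraries edgeR on the 2 groups called Zic1 in no comparison, with a log2 difference from T0 of −0.15 (SE 0.19) for T1, −0.36 (SE 0.16) for T2 and −0.68 (SE 0.25) for T3. The edgeR adjusted p was 0.54, 0.11 and 0.15 in that order. Without T0 replicate 3 Zic1 was called lower at all 3 times, by −0.34, −0.54 and −0.86 with edgeR adjusted p = 0.0098, 0.0007 and 0.015, so that the edgeR calls turned on 1 library. With T0 replicate 3 included, one edgeR fit of all 12 libraries called it lower at T3 (adjusted p = 0.0123), and 3 limma fits on FPKM called it lower at T2 (adjusted p = 0.0379, 0.0382 and 0.0483). The edgeR fit of all 12 libraries called 2000 genes higher and 1865 lower of 12952 at T3, against 421 and 179 of 12721 in the fit of the 2 groups. The opposite strand of Zic1 holds Zic4, and they share 60 of the 5693 exonic bases of Zic1. The library kit did not mark strand, and Zic4 had 19 to 75 counts in a library where Zic1 had 437 to 1277.

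The ratio of the CPM of Meis2 to that of Zic1 within a library does not depend on the scaling between libraries. It was 0.752, 0.785 and 0.790 in the 3 T0 libraries, 1.85 to 2.23 at T1, 1.83 to 2.17 at T2 and 1.66 to 1.71 at T3. T0 replicate 3, low in both genes, did not stand apart in their ratio. The 9 libraries of T1 to T3 all held more CPM of Meis2 than of Zic1, and the 3 T0 libraries all held less. CPM is not scaled to length, and in FPKM Meis2 lay above Zic1 in the T0 libraries too, so that the ratio shows a change over time and not which gene was higher. This ratio was chosen after the values were seen and was not tested.

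Lhx2, a LIM homeodomain factor needed for cortical and eye identity (chr2:38194801-38225253, plus strand), was the second member that passed the test. Its level was 30.8, 29.8 and 36.9 CPM at T0 and 41.5, 43.3 and 50.2 CPM at T1. It was 36.8, 47.3, 47.9 and 41.4 CPM at T2, and 29.6 and 32.9 CPM at T3. T1 lay above T0 without overlap, whereas T2 replicate 1 fell just below T0 replicate 3. Lhx2 rose on the log2 scale by 0.46 at T1 and by 0.43 at T2 (SE 0.14 for both), with edgeR adjusted p = 0.047 and 0.037. These calls were close to the threshold. That at T1 was lost when T0 replicate 1 or 2 or any T1 library was left out, with adjusted p from 0.096 to 0.14. That at T2 was lost without T0 replicate 1 or 2 or T2 replicate 2, 3 or 4, with adjusted p from 0.072 to 0.12. At T3 the level was that of T0 within the spread (log2 difference −0.04, SE 0.18), and the difference of −0.47 (SE 0.14) from T2 had an edgeR adjusted p of 0.14.

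The 2 members that rose at T1 and T2 are shown with the bases before their annotated starts, from RefSeq on build GRCm38.p6, 5′ to 3′ on the strand of the gene. RefSeq gave 2 starts for Lhx2, and for Meis2 the 182 bases next to its start are shown, because the bases before these lie in exons of other Meis2 transcripts. Capitals mark TGGGAA, the core to which the Notch mediator RBPJ binds, and the GC box GGGCGG, on either strand; both were added to the search after the letters had been read.
Meis2, chr2:116064620-116064801: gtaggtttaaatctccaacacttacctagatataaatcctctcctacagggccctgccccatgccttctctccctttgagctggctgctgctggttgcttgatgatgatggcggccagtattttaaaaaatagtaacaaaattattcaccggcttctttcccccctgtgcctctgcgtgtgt
Lhx2 first start, chr2:38339031-38339280: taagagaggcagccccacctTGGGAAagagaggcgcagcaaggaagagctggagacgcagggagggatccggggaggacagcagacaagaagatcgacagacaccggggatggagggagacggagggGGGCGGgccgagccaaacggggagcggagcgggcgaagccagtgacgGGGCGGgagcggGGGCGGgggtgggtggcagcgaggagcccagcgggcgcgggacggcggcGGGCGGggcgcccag
Lhx2 second start, chr2:38351058-38351307: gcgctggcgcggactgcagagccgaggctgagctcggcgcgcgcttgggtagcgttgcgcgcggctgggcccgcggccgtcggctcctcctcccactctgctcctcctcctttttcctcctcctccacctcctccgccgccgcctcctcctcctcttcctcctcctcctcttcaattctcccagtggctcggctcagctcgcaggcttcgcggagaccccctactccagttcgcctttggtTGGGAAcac

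The stretches differ in base composition, with 47.2% G and C before Meis2 and 72.8% and 68.4% before the Lhx2 starts, beside a median of 52.4% over the 32851 promoter windows of 250 bases in the table. Both Lhx2 windows hold TGGGAA once, which 21.6% of all windows hold, and the first holds GGGCGG in 4 places, which 32.7% of windows hold at least once. The cores TAATTA (LIM, EMX and DLX homeodomains), TAATCC (OTX), TGACAG (MEIS), CAGCAGG (ZIC) and CAAGTG (NKX2-1) were found on neither strand of the 3 stretches. Of all windows 4.84%, 6.25%, 15.9%, 8.44% and 11.6% hold them, in that order. A match or its absence describes these letters only.

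Emx2, a homeodomain factor of dorsal telencephalon and of its progenitors (chr19:59533180-59539847, plus strand), varied least. It was 11.9, 11.7 and 10.7 CPM at T0 and 10.1, 10.98 and 12.1 CPM at T1. It was 10.7, 12.7, 11.5 and 11.6 CPM at T2, and 11.4 and 11.2 CPM at T3. The groups overlapped in each comparison. Against T0 its log2 difference came to −0.05 (SE 0.16) for T1, 0.04 (SE 0.14) for T2 and 0.00 (SE 0.22) for T3, with edgeR adjusted p = 0.83, 0.83 and 1.00, and its sign changed with the processing.

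Otx1, the paralog of Otx2 that takes part in cortical and midbrain patterning (chr11:21894767-21902900, minus strand), was low. It was 8.55, 9.28 and 7.83 CPM at T0, and 7.24, 7.32 and 7.26 CPM at T1. It was 5.64, 7.31, 7.01 and 6.70 CPM at T2, and 6.87 and 6.89 CPM at T3. All 9 later libraries lay below the 3 of T0, but the log2 differences of −0.24 (SE 0.17) at T1, −0.34 (SE 0.17) at T2 and −0.30 (SE 0.25) at T3 had edgeR adjusted p of 0.31, 0.14 and 0.49. The third member of the OTX family, Crx, which is known from photoreceptors, had 1 count in 1 library.

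**Figure D2:**
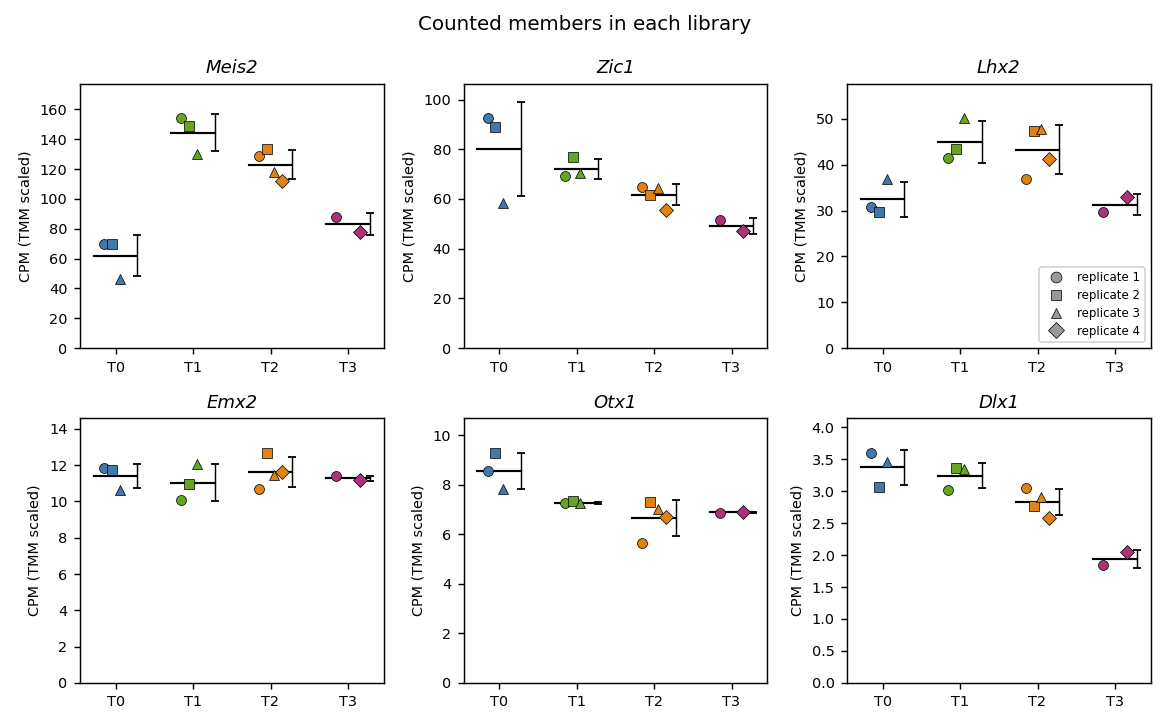
CPM of the 6 counted members in each library at T0, T1, T2 and T3, with the shape giving the replicate, a line at the group mean and a bar of 1 SD, and each axis starting at 0. Meis2 lies between 112 and 154 CPM at T1 and T2 and below 70.0 CPM at T0, Zic1 and Dlx1 are lowest at T3, and Emx2 stays between 10.1 and 12.7 CPM.

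Dlx1, a homeodomain factor of subpallial progenitors and interneurons (chr2:71366170-71372038, plus strand), was the only member of the DLX family above 20 counts in a library. It had 48, 44 and 49 counts at T0, 35, 45 and 55 at T1, 32, 30, 32 and 42 at T2, and 22 and 19 at T3. In CPM the 2 T3 libraries, at 1.84 and 2.05, lay below all others, which spanned 2.58 to 3.60. The log2 difference between T3 and T0 was −0.78 (SE 0.34) with an edgeR adjusted p of 0.21, and passed only when all 12 libraries were fitted together (edgeR adjusted p = 0.026). That fit called 2000 genes higher and 1865 lower of 12952 at T3. Dlx1as, the antisense RNA of the locus, shares 335 of the 5396 exonic bases of Dlx1 and had 2 to 8 counts, and reads of the pair cannot be told apart by strand.

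The other Dlx genes were near 0. Dlx2, the neighbour of Dlx1 that acts with it in the ganglionic eminences, had at most 4 counts and Dlx3, known from skin and placenta, at most 5. Dlx5 had 0 counts in all 12 libraries, and Dlx6 and Dlx6os1 had 1 count each, in T2 replicate 4. Dlx4 was the exception, with 6, 5 and 1 counts at T0, 4, 7 and 7 at T1, 5, 10, 9 and 20 at T2, and 14 and 20 at T3. It rose at T2, to a mean of 0.433 FPKM, by 1.60 on the log2 scale (SE 0.56; adjusted p = 0.047 in edgeR). Without T0 replicate 3, which held the single count, this call was lost (1.16, SE 0.49, adjusted p = 0.071). The symbol Dlx6as1 was also looked for and matched no entry, which does not exclude that its transcript is counted under another symbol.

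Over the 6 members that could be tested, 2 were higher and 0 lower at T1, against 15.1% of 12364 genes called higher and 16.8% lower. At T2 again 2 were higher and 0 lower, where 21.4% of 12607 genes were higher and 21.8% lower, and at both times edgeR gave no other member an unadjusted p under 0.05. No member was called between T3 and T0, where 3.31% of genes were higher and 1.41% lower. Between T2 and T1 none was called either, beside 0.573% higher and 0.0565% lower, nor between T3 and T2, beside 0.5% higher and 0.691% lower. In these last 3 comparisons the unadjusted edgeR p was under 0.05 for 1 member (Zic1), 2 (Meis2 and Zic1) and 3 (Meis2, Zic1 and Lhx2), and DESeq2 called 0, 0 and 1. Over all genes tested, the unadjusted edgeR p was under 0.05 for 3350 of 12721, 1444 of 12382 and 2144 of 12599 in the same order. DESeq2 called 1084 genes higher and 939 lower of 13658, then 234 and 70 of 13406, and 430 and 330 of 13088. On a base of 6 genes, 2 higher calls are not far from the background at T1 and T2. For T1, T2 and T3 against T0 the 6 members had median log2 differences of −0.05, −0.10 and −0.17, beside −0.01, 0.00 and −0.01 over all genes tested. These 3 comparisons share the T0 libraries.

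**Figure D3:**
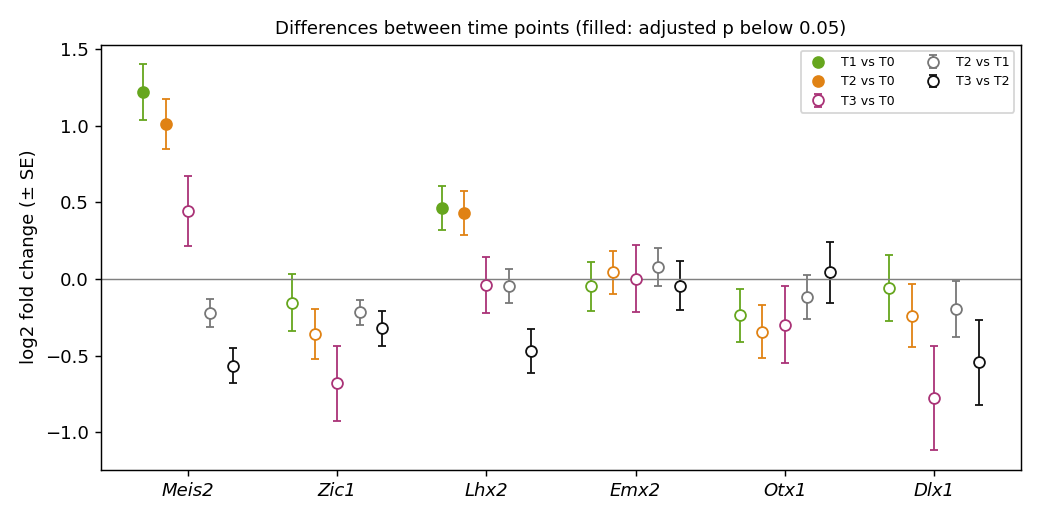
Log2 fold change with its SE for the 6 tested members in 5 comparisons, one colour per comparison, filled where the edgeR adjusted p was below 0.05. Only Meis2 (1.22 and 1.01) and Lhx2 (0.46 and 0.43) are filled, at T1 and T2 against T0.

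Across the 12 libraries Meis2 and Lhx2 had a Pearson r of log2 CPM of 0.669, Zic1 and Dlx1 of 0.761, and Meis2 and Otx1 of −0.512. These are descriptions over libraries that share their time points and depth. Among 12952 genes the 3 most like Meis2 were Rgs12, a regulator of G protein signalling (r = 0.990), Slc38a7, an amino acid transporter (0.987), and Dll1, a Notch ligand (0.985). Those most like Zic1 were 4930578N16Rik (0.958), Nfib, a transcription factor of glial and neuronal maturation (0.955), and the receptor Notch3 (0.939). Lhx2 was most like Cdc42ep3 (0.919), Stau1 (0.914) and Gm16039 (0.905), and Otx1 like Hnrnpa1 (0.902), Plxnd1 (0.890) and Zic5 (0.887). Dlx1 was most like 2610301B20Rik (0.917), Wdpcp (0.889) and 1190002N15Rik (0.886). Emx2, which hardly varied, reached only 0.807 with Tlr6, 0.762 with Gm15787 and 0.745 with Zscan18.

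Among paralogs and partners, Meis1 and Meis3 were expressed beside Meis2, with mean FPKM of 29.8 and 15.1. Meis3 rose with Meis2 at T2, by 1.30 on the log2 scale (SE 0.26, edgeR adjusted p = 0.0046), whereas Meis1 differed from T0 by 0.16 (SE 0.21, adjusted p = 0.57). In T0 replicate 3 Meis3 had 148 counts against 312 and 316 in the other two, the same direction as for Meis2. The 3 Pbx genes examined, Pbx2, Pbx3 and Pbx4, whose proteins bind DNA together with MEIS proteins, were counted in every library at means of 10.0 to 14.7 FPKM, and Pbx3 fell at T2 by 0.91 on the log2 scale (SE 0.12, adjusted p = 0.00055). Without T0 replicate 3 Pbx2 was called lower too (−0.33, SE 0.09, edgeR adjusted p = 0.015). Zic2, Zic4 and Zic5 lay below Zic1, at most 3.76 FPKM in the mean. At T2 Zic5 fell (−0.97, SE 0.30, edgeR adjusted p = 0.032), while Zic2 differed by −0.28 (SE 0.15, adjusted p = 0.16). Emx1, Nkx2-2 and Nkx2-4 had at most 1 count in any library, and Lhx9 at most 3.

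The levels of other regional genes bear on the forebrain label. Of the 9 telencephalic and anterior forebrain genes given here, 6 had at most 3 counts in every library, namely Hesx1, Fezf1, Fezf2, Lhx5, Six6 and Vax1, and none of the 9 reached a mean of 1 FPKM. Six3, which marks the most anterior neural plate, was the highest of them at 0.475 FPKM and fell at T2 by 1.21 on the log2 scale (SE 0.24, edgeR adjusted p = 0.0046). Lhx2, Emx2 and Otx1 were thus counted in all libraries beside 6 anterior genes that stayed at or under the floor of 3 counts.

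Of 17 dorsal telencephalic genes 5 reached 1 FPKM, beside the 38.3% of all genes, led by Pax6, a factor of cortical and other progenitors, at 24.4 FPKM. Neurog2, a proneural factor of excitatory neurons, rose at T2 by 6.15 (SE 0.57, edgeR adjusted p = 0.00013) to 5.52 FPKM, and Gli3 fell by 1.57 on the log2 scale (SE 0.19, adjusted p = 0.00039). Of 23 ventral telencephalic genes 13 reached 1 FPKM, with Olig1 and Olig2, basic helix-loop-helix factors that are also expressed in oligodendrocyte precursors, at 942 and 364 FPKM and the nuclear receptor Nr2f1 at 52.8 FPKM. Olig2 was called higher at T2 only without T0 replicate 3 (0.31, SE 0.09, edgeR adjusted p = 0.020), which held 1351 CPM against 1029 and 944 in the other T0 libraries. Gsx2, a determinant of lateral ganglionic eminence, and Isl1, of striatal and motor neurons, had 0 counts in all 12 libraries. Gsx1 had 0, 1 and 0 counts at T0, 15, 13 and 7 at T1, 23, 23, 8 and 28 at T2, and 134 and 51 at T3, and rose from T2 to T3 by 2.30 (SE 0.41, edgeR adjusted p = 0.047). Of the 18 ventral genes tested at T2, 7 were higher and 0 lower, with a median log2 difference of 0.38, beside 21.4% of all genes higher and 21.8% lower. Without T0 replicate 3 these were 9 higher and 0 lower, beside 26.7% and 25.3% of all genes. Gsx1 and Rarb, both among the 7 higher, passed the filter on low counts only through their T2 libraries, which raises that tally. The call of Rarb was lost without T0 replicate 3 (1.26, SE 0.50, edgeR adjusted p = 0.060).

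Some genes of more caudal territories were also counted. For the diencephalon 10 of 17 listed genes reached 1 FPKM, several of them also known from midbrain, hindbrain or spinal cord, and 7 of 12 tested were higher and 1 lower at T2, with a median of 0.55, beside the same 21.4% and 21.8% of all genes. The Iroquois factor Irx1 went from 1.83 FPKM at T0 to 17.8 at T1 and 18.9 at T2, while the 2 T3 libraries stood far apart at 28.03 and 7.19 FPKM. The log2 difference at T2 was 3.46 (SE 0.46, edgeR adjusted p = 0.00067), and 3.04 without T0 replicate 3, which had 23 counts against 86 and 98. Gata3 rose at T2 by 2.98 (SE 0.32, adjusted p = 0.00023), and Sim1 fell by 1.28 on the log2 scale (SE 0.42, adjusted p = 0.036). The call of Sim1 was lost without T0 replicate 3 (−0.93, SE 0.39, edgeR adjusted p = 0.068). In the midbrain and isthmus list 3 of 13 genes reached 1 FPKM, namely Foxa1, En2 and En1 with 2.58, 1.49 and 1.43 FPKM. The shares of the midbrain and hindbrain genes at this level were below the 38.3% of all genes. Of the 4 midbrain and isthmus genes tested at T2, 3 were higher, En2 among them (1.38, SE 0.21, edgeR adjusted p = 0.0014), with a median of 0.99. Another of the 3, Fgf8, passed the filter on low counts only through T2. It had 4, 9 and 2 counts at T0 and 14, 13, 15 and 24 at T2. Egr2 and Gbx2, 2 of the 6 hindbrain genes, stood at 2.61 and 1.84 FPKM. T0 replicate 3 held 162 counts of Gbx2 against 57 and 57, and 187 of Egr2 against 100 and 72. Neither passed the test at T2, with log2 differences of 0.69 (SE 0.38, edgeR adjusted p = 0.17) for Gbx2 and −0.64 (SE 0.37, adjusted p = 0.19) for Egr2. Without T0 replicate 3 Gbx2 was called higher (1.36, SE 0.21, edgeR adjusted p = 0.00047) and Egr2 was not (−0.18, SE 0.30, adjusted p = 0.64). En1 had 242 counts in T0 replicate 3 against 81 and 83 in the other T0 libraries.

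Among 38 Hox genes examined, 9 had a mean of at least 1 FPKM, fewer than the 38.3% of all genes, and 7 of these lay in the HoxA cluster. Hoxa10, Hoxa5 and Hoxa3 were the highest at 13.8, 12.4 and 11.6 FPKM, near the level of Lhx2 and above those of Emx2, Dlx1 and Otx1 in the mean. Of the 10 HoxA genes only Hoxa11 stayed at 3 counts or less throughout. In contrast, 7 of 10 HoxB, 9 of 9 HoxC and 6 of 9 HoxD genes had at most 3 counts in every library. At T0 the 8 HoxA genes from Hoxa2 to Hoxa10 had 3 to 500 counts in each library, the lowest for Hoxa9 in T0 replicate 3. Hoxa11 had 0 counts there, and Hoxa13 had 2, 1 and 1 counts at T0 and 14 and 6 at T3. At T2 Hoxa6 and Hoxa10 rose by 0.77 (SE 0.25) and 0.55 (SE 0.15) and Hoxa3 fell by 0.34 on the log2 scale (SE 0.12), with edgeR adjusted p = 0.037, 0.017 and 0.047. Of the 14 Hox genes tested at T2, 2 were thus higher and 1 lower, beside 21.4% of all genes higher and 21.8% lower. Their median log2 difference was 0.17.

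**Figure D4:**
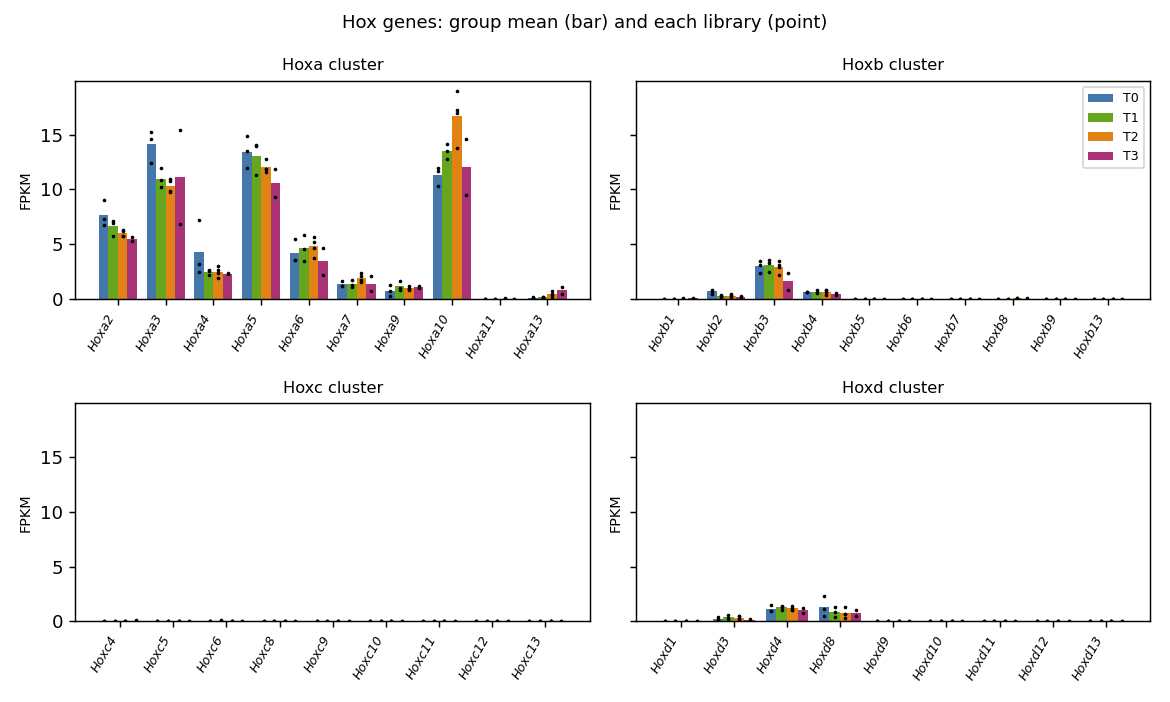
FPKM of 38 Hox genes by cluster on a shared axis from 0, with bars for the mean of each time point and a point for each library. The HoxA genes from Hoxa2 to Hoxa10 carry nearly all of the signal, with 3 genes at means of 11.6 to 13.8 FPKM, and the HoxC cluster is near 0 throughout.

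Cell type markers were read beside these results. Of 15 neural stem and progenitor markers 14 had a mean of at least 1 FPKM, and their summed level stayed between 8430 and 10760 CPM at all times. That sum does not show that single markers were unchanged. Vim had 3045 to 3781 CPM at T0 and 2004 to 2919 CPM later. Fabp7 had 751 and 811 CPM in T0 replicates 1 and 2, 2257 CPM in replicate 3 and 1280 to 2294 CPM later. It was called higher at T2 only without T0 replicate 3 (1.23, SE 0.19, edgeR adjusted p = 0.00043). Of 14 progenitor markers tested at T2, 2 were higher and 2 lower, or 5 and 3 without T0 replicate 3. The summed level of 12 neuronal markers went from 894 to 966 CPM at T0 up to 2060 to 2610 CPM at T1, 2032 to 2590 CPM at T2 and 1698 to 2726 CPM at T3. All of them that could be tested were higher at T1 (5 of 5) and T2 (6 of 6). The filter on low counts passed some only through the group where they were high, so these tallies were partly set by it. Snap25 had 1, 4 and 2 counts at T0 and 17, 29 and 14 at T1. Rbfox3 had 1, 0 and 1 counts at T0 and 13, 25, 13 and 34 at T2. At T3 there were 3 higher of 7 tested, or 5 of 7 without T0 replicate 3. Of all genes tested, 15.1% were higher at T1, 21.4% at T2 and 3.31% at T3. Without T0 replicate 3 the share at T3 was 9.94%. Mtap2, a microtubule protein of dendrites, made up most of this sum, with 879.5 to 921 CPM at T0 and 1309 to 2169 CPM later, whereas Stmn2 had at most 1 count and Syt1 at most 15. Among the neuronal markers Gad1, which makes GABA, rose, while Gad2 and Slc32a1 had at most 1 count and Slc17a6 had 0. Meis2 and Lhx2 moved with these markers at T1 and T2, and the part of the neuronal cells in their rise was not tested. Astrocyte markers summed to 254 to 1027 CPM at T0, where T0 replicate 3 had 7 counts of Gfap against 1958 and 2144. They summed to 635 to 791 CPM at T1, 890.5 to 1075 CPM at T2 and 697 to 1062 CPM at T3. Of 6 tested at T2, 0 were higher and 2 lower, beside 21.4% and 21.8% of all genes. Without T0 replicate 3 these were 1 higher and 3 lower, beside 26.7% and 25.3%. Oligodendrocyte lineage markers summed to 384 and 401 CPM in T0 replicates 1 and 2 and to 191 CPM in replicate 3, and went to 599 to 630 CPM at T1, 490 to 593 CPM at T2 and 404 to 632 CPM at T3. Cnp (184 to 497 CPM) and Pdgfra (3.67 to 229 CPM) made up most of this sum, which does not show each marker. Sox10 had 3.38, 2.65 and 0.705 CPM at T0 and 0.108 to 0.669 CPM later. It was called lower at T2 only without T0 replicate 3 (−2.68, SE 0.38, edgeR adjusted p = 0.00028). All 7 microglial markers had at most 3 counts in every library, while 5 endothelial, 9 meningeal and 4 ependymal markers summed to at most 3.05, 48.4 and 33.0 CPM. The meningeal maximum was that of T0 replicate 3, where the other 11 libraries reached 16.7 to 26.9 CPM.

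Hedgehog signalling ventralises the forebrain and acts upstream of Nkx2-1. Its ligand Shh had at most 15 counts in a library and its target Gli1 at most 16, whereas the receptor Ptch1 had a mean of 102 FPKM. In T0 replicate 3 Ptch1 had 1044 counts against 3440 and 3775, and it was called higher at T2 only without that library (0.44, SE 0.17, edgeR adjusted p = 0.046). Of 10 genes of the pathway tested at T2, Cdon, a coreceptor, rose (1.52, SE 0.21, edgeR adjusted p = 0.0008) and 4 fell, namely Smo, Gli1, Gli3 and Hhip, with a median of −0.25, beside 21.4% of all genes higher and 21.8% lower. Of these, Gli1 passed the filter on low counts only through T0, where it was high. Nkx2-1 had no count at any of these times apart from the 2 in T2 replicate 4.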

How the data were processed

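The deposited files hold, for each of the 12 libraries, whole-number read counts per gene, which the authors made with HTSeq 0.6.0 from TopHat2 2.0.6 alignments (Bowtie 0.12.7.0) to mm9. The strand setting is not given in the sources used here. The authors also deposited FPKM values per gene for the same libraries, by a tool not given in the sources used here; these were used for levels between genes. The 5 entries of each table that name no gene were left out. Between 13.3% and 24.1% of uniquely aligned reads fell on no gene. Counts were compared with edgeR 4.0.16 (R 4.3.3): filterByExpr, TMM scaling and the quasi-likelihood test on the 2 groups of each comparison, with Benjamini-Hochberg adjustment over all genes tested and a threshold of 0.05. The filter can pass a gene through the group where it is high, so tallies of calls within a list are not tests of that list. SE is the log2 fold change divided by the root of F. Floors set by 3 counts cover counting error only. Alternatives used RLE factors, no filter, one fit of all libraries, a replicate block, DESeq2 1.42.0, limma 3.58.1 on log2(FPKM + 1) or log2(FPKM + 0.1), and fits without each library. Fits were tested on simulated counts. The labels state no pairing of replicate numbers. Same-numbered libraries of T1 and T2 had correlated deviations (r = 0.199, 0.341 and 0.166), more than those of T0 and T1 (−0.018, 0.121 and 0.066). T0 replicate 1 with T3 replicate 1 gave 0.404, but T0 replicate 2 with T3 replicate 1 gave 0.411. T1 replicate 3 correlated more with T2 replicate 4 (0.370). T2 and T3 shared the numbers 1 and 4 (−0.015 and 0.258). The deposited names of T3 replicate 4 hold both 2 and 4, and the number of its label, 4, was used. Members and gene lists were chosen with earlier results of these data known. Named genes were all members, up to 3 called genes with the largest change and the 3 highest in FPKM of each list, all Dlx genes, and the 3 genes most like each member; others were named after their values were seen. Gene positions are from GENCODE vM1, and RefSeq promoters matched 7 of 8 members. Some genes of these lists are not reported here.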

Additional observations from a re-analysis of the deposited data

How the results depend on the processing

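Of 420 alternative values of the members' log2 differences, 360 kept their direction and their side of the threshold, 22 lost a call, 13 gained one and 25 changed sign, all 25 of them for Emx2, Lhx2 or Otx1 in comparisons where no fit called them. The call of Meis2 at T1 was kept under all 14 alternatives, and that at T2 under all but the 3 limma fits on FPKM. T3 had 2 libraries and Dlx1 19 to 55 counts in a library, which limits the precision of their comparisons. A fit without a T3 library leaves T3 with 1, which is assumed to vary like the other group.

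At T1 against T0, where 2 members were called, no filter on low counts left 1 (Meis2), as did limma on log2(FPKM + 1), on log2(FPKM + 0.1) and on log2(FPKM + 1) with no filter, and leaving out 1 library gave 1 to 3. At T2 against T0, also with 2 members called, no filter left 1 (Meis2), the replicate block left 1 (Meis2) and limma on unfiltered log2(FPKM + 1) called 1 (Zic1, lower), while both filtered limma fits called Otx1 and Zic1 lower in place of Lhx2 and Meis2, and leaving out 1 library gave 1 to 3. At T3 against T0, where 0 were called, one fit of all 12 libraries called 2 (Zic1 and Dlx1, both lower) and leaving out 1 T0 library gave 0 to 1. Over all genes that fit of 12 libraries called 2000 higher and 1865 lower of 12952, against 421 and 179 of 12721 in the fit of the 2 groups. At T3 against T2, where 0 were called, DESeq2 and edgeR with no filter each called 1 (Meis2, lower), and leaving out 1 library gave 0 to 1. The cause of these differences was not tested, except that fits without a library rest on fewer samples.

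The FPKM scale moved the median log2 difference of all genes to −0.17 at T2 and −0.26 at T3 against T0. Relative to that median, the values at T2 with log2(FPKM + 1) were −0.26 for Otx1, −0.28 for Zic1 and 0.71 for Meis2.

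The sign of Emx2 turned at T2 against T0 on the FPKM scale (−0.074, −0.085 with a pseudocount of 0.1 and −0.074 with no filter), at T3 against T0 with DESeq2 (−0.003), with no filter on low counts (−0.015), in one fit of all libraries (−0.012) and on the FPKM scale (−0.299, −0.341 and −0.299), and at T2 against T1 on the FPKM scale (−0.055, −0.063 and −0.055). Otx1 turned at T3 against T2 on the FPKM scale (−0.06, −0.089 and −0.06). Without 1 library at a time, Emx2 ranged from −0.117 to 0.016 at T1, from −0.004 to 0.067 at T2 and from −0.045 to 0.03 at T3 against T0. Lhx2 ranged from −0.129 to 0.061 at T3 against T0 and from −0.107 to 0.042 at T2 against T1, and Otx1 from −0.034 to 0.088 at T3 against T2.

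With the replicate block Emx2 turned at T3 against T2 (0.014), and apart from the loss of Lhx2 at T2 against T0 the block changed no member's call. In T2 against T1, where same-numbered libraries had correlated deviations, 0 members were called with and without the block. Over all genes the calls went from 71 higher and 7 lower to 187 higher and 59 lower. No paired analysis was possible for T3 against T0 because those groups share only 1 replicate number by their labels, where the second T3 library is numbered 4 although its deposited column name holds both 2 and 4.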
